A study of Saccharomyces cerevisiae with 24 samples.

Results

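Peaks at the mating type loci of budding yeast were described here, namely the active locus MAT and the silent cassettes HML and HMR on chromosome III, with their silencers. The members were all sub-nucleosomal peaks in 3 windows of that chromosome, chosen by position and not by any measured value: 22 peaks between positions 10935 and 15187 for HML, 17 between 197680 and 201332 for MAT and 17 between 291928 and 295380 for HMR. That gave 56 peaks of the 58467 in the table. The windows hold the genes HMLALPHA1 and HMLALPHA2, MATALPHA1 and MATALPHA2, and HMRA1 and HMRA2.

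The assay was sub-nucleosomal MNase-seq, which sequences DNA that survives micrococcal nuclease, and fragments shorter than 100 bp were selected in the authors' analysis. Such fragments are taken as DNA covered by a bound protein, which was not tested for single peaks here. Both strains were W303 MATa cells with rad5-535 and can1-100, the nutritional markers leu2-3, 112 and trp1-1, and also ura3-1, ade2-1 and his3-11, 15, and both lacked SML1, an inhibitor of ribonucleotide reductase. The control carried sml1_delta::URA3. The SSDDCS strain carried sml1_delta::HphNT and galactose-driven copies of 6 limiting replication factors, integrated at trp1 as trp1::Sld2-PGAL1-10-Dpb11::TRP1, at leu2 as leu2::Sld7-PGAL1-10-Cdc45::LEU2 and, for the last pair, at his3 as SLD3-A-PGAL1-10-Dbf4-A, marked with HIS3. The study's strain list gives the SML1 deletion marker of the SSDDCS strain as HphMX. Each strain was 1 culture, grown in raffinose, arrested in G1 with alpha factor, given galactose for 30 min and released into galactose medium. It was sampled in G1, every 5 min from 5 to 50 min, and at 60 min. Each of the 24 combinations of strain and time was 1 library, so no group had a replicate. Time points of 1 culture are not independent replicates, no significance test was run, and every interval given below is a 95% Wilson interval that covers counting error only. Library totals over all peaks were 484807 to 536253 reads in the control and 481930 to 518046 in SSDDCS. Values are reads scaled to a common total of 507398 per library, called normalised reads. No peak of the table lay in the open reading frame of SML1, the gene deleted in both strains.

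The mating type of a haploid yeast cell is set by the gene pair present at MAT. HML and HMR hold complete alpha and a copies of the same information, which are kept unexpressed by the Sir proteins. Sir proteins are recruited at the silencers E and I that flank each cassette, short elements bound by the origin recognition complex (ORC) together with Rap1 or Abf1, and the cassettes serve as donors when the HO endonuclease cuts MAT. X and Z1 are shared by all 3 loci, W and Z2 by HML and MAT only, and between X and Z1 lies Y, which differs between the a and alpha forms. The α1 protein activates alpha-specific genes, the α2 protein represses a-specific genes, and the a1 protein acts with α2 in diploids to repress haploid-specific genes. HMRA2 is a shortened form of the α2 reading frame.

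The 4 silencers are shown first because the central comparison sets them against the cassettes they flank. All sequences are the plus strand of the R64 reference of strain S288C. In the silencers, capitals mark the best match to the 11-base ORC consensus of yeast origins and, except at HML-E, an exact match to the 13-base Abf1 consensus, both searched on both strands. HML-E is chrIII:11237-11287, HML-I chrIII:14580-14731, HMR-E chrIII:292654-292789 and HMR-I chrIII:294785-294913.

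HML-E: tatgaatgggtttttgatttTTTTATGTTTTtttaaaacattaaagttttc
HML-I: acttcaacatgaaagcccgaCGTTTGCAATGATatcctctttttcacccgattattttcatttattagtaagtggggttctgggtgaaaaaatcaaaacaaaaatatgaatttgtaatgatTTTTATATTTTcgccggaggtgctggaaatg
HMR-E: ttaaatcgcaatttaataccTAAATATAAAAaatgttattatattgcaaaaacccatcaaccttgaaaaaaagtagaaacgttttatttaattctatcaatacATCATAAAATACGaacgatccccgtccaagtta
HMR-I: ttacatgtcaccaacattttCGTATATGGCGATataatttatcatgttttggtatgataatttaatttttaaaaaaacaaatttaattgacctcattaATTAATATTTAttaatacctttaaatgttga

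The ORC match was exact at HML-E (positions 11257 to 11267), HML-I (14701 to 14711) and HMR-E (292674 to 292684) and had 1 mismatch at HMR-I (294883 to 294893). The Abf1 matches began at 14600, 292757 and 294805. No match to the 13-base Rap1 consensus with up to 1 mismatch was found within 100 bp of any of these origins, which says only that these letters are not there. Among windows reaching 50 bases to either side of 8213 high-confidence peaks of the genome, 9.84% held an ORC match with up to 1 mismatch, 0.572% an exact one, 8.22% an Abf1 match, 1.23% a Rap1 match and 38.6% a match to the 10-base Mcm1 consensus with up to 1 mismatch. Of the 7 high-confidence members, 2 held an ORC match, 2 an Mcm1 match and 0 an Abf1 or Rap1 match.

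The next sequences were chosen because the deepest peaks of the cassettes lay on them. The first pair is the deepest member, at HML, and the aligned stretch of MAT, which differs from it at 1 base (G41T, counted from 1 at the left end, in capitals). These are chrIII:11735-11835 and chrIII:198897-198997. The third is the deepest HMR peak, chrIII:294330-294430, with capitals on the bases of Z1, where Ya ends.

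HML W: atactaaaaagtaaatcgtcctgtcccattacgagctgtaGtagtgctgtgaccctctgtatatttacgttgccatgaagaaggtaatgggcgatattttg
MAT W: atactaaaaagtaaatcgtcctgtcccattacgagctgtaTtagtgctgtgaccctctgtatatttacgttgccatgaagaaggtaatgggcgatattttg
HMR Ya to Z1: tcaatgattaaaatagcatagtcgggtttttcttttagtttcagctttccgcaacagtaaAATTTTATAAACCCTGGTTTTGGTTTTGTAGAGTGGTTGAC

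Most of the cassette interior cannot be assigned to 1 locus. Blocks were found as runs of 50 bases shared between the loci. A base that differs near an edge moves that edge, so the edges and lengths of blocks are approximate. This gave a W of 730 bases at HML and MAT, and an X of 705 bases at HML and HMR and 703 at MAT. Z1 had 203 bases at all 3, and Y had 758 bases in the alpha form and 653 in the a form. Of the 29 interior peaks, 22 had a surrounding 100 bases that occurred elsewhere in the reference as well, against 0 of 10 silencer peaks and 1 of 17 flank peaks. How the aligner divided fragments between equal places was not stated.

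At aligned positions of these blocks the copies held similar totals. Over 10 pairs of HML and MAT peaks within 40 bp of each other, of which 9 had identical sequence over the 50 bases to either side, HML held 1186 and MAT 1077 reads in the 24 libraries, an HML share of 52.4% (50.3% to 54.5%). The pair that was not identical, at 12235 and 199431, held 221 and 68 of these reads, a larger gap than that between the totals. The 9 identical pairs thus held slightly fewer reads at HML than at MAT. The 3 pairs of HML and HMR peaks gave 309 and 285 reads (52.0%, 48.0% to 56.0%). The 4 pairs of MAT and HMR peaks gave 397 and 371 (51.7%, 48.2% to 55.2%). Single identical pairs could still be unequal. The Yα pair at 13136 and 200281 gave 121 and 79 reads, and the X pair at 12786 and 199931 gave 103 and 44. Shares of such pairs are therefore not levels of 1 locus.

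**Figure D1:**
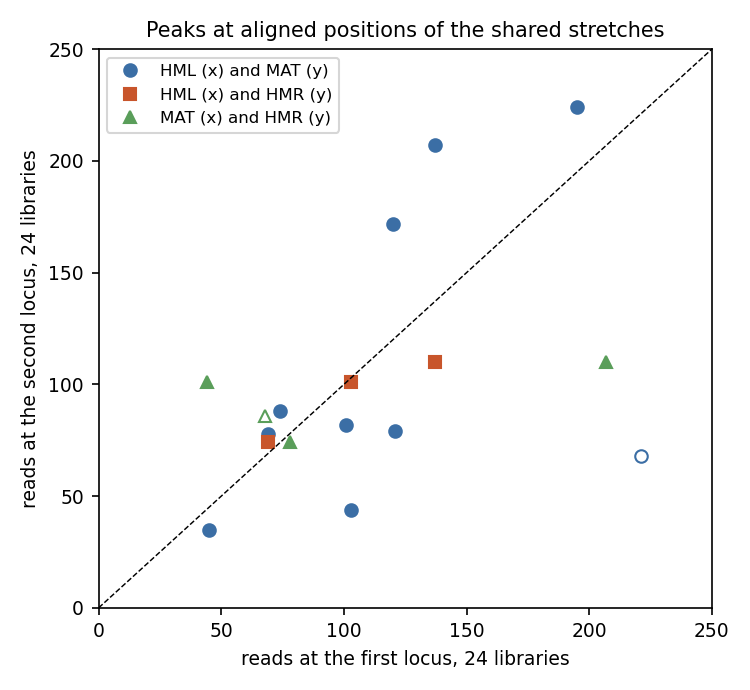
Reads summed over the 24 libraries at pairs of peaks within 40 bp of each other in aligned sequence, with 1 locus on each axis and the dashed line at equality. Open symbols are pairs whose sequence differs within 50 bases, and the open circle at 221 and 68 reads is the pair at 12235 (HML) and 199431 (MAT).

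Between HML and MAT, the places that differed in sequence were in the W block and at its edge. The HML peak at 11785, in the reading frame YCL068C, held 307 reads. In the reference, the G41T base sets it apart from MAT, where no peak was called within 40 bp of the aligned position 198947 and the nearest, 134 bp away, held 82 reads. At the edge of W and X, the HML peak at 12235 held 221 reads and the MAT peak at 199431 held 68, an HML share of 76.5% (71.3% to 81.0%), and here the sequences differed by A12G, counted in the same way from 50 bases left of the peak. Both differences are those of the S288C reference, and the sequence of the W303 cells was not checked. Fragments that miss the differing base fit both loci, so these reads are not levels of HML alone.

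The Y block was used to check the labelled mating type. The reference carries the alpha form at MAT, so in MATa cells fragments of both Ya copies fall on HMR and fragments of the single Yα copy are spread over HML and MAT. Copy number alone would give Ya over Yα a ratio of 2 in MATa cells and 0.5 in MATalpha cells. Ya held 692 reads on 4 peaks and Yα 280, of which 166 were placed at HML and 114 at MAT. Per base of Y sequence the ratio was 3.07 (2.50 to 3.77) in the control and 2.70 (2.24 to 3.26) in SSDDCS. Per called peak, with the 2 Yα stretches added, it was 1.32 and 1.16. All 4 pooled values lay above 1, but the per-peak values are given without an interval. Single libraries ranged per peak from 0.5 to 4.83 in the control and from 0.62 to 3.1 in SSDDCS. The peak at 294380, whose surrounding bases reach into Z1, held 290 of the 692 Ya reads. The scale moved the pooled ratio from 1.24 to 2.87, so the measure did not give the copy number.

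The level of the member peaks was ordinary for this table. The median of the mean normalised reads per library was 4.31 over the members, from 1.47 to 12.8, against 4.62 over all peaks, and 33 of 56 members lay below the latter. A peak was called high-confidence when log2(normalised reads + 1) summed to over 75 across the 24 libraries, with the study's threshold and a scaling and pseudocount chosen here. That held for 7 of 56 members and 8217 of 58467 peaks. Just inside the threshold was 14036 with a sum of 76.4 and just outside was 13836 with 74.8.

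The 10 silencer peaks, defined as those within 100 bp of the annotated origins ARS301, ARS302, ARS303, ARS317 and ARS318, were not deeper than the 29 interior peaks. Of these interior peaks, 10 lie at MAT, which has no silencer peaks. Mean reads per peak were 4.41 in the control and 4.73 in SSDDCS at the silencers, against 4.89 and 5.57 in the interior. The ratio of silencer to interior was 0.903 ± 0.160 over the 12 control libraries (SD), from 0.671 to 1.18, and lay below 1 in 9 of them. In SSDDCS it was 0.852 ± 0.135 and lay below 1 in 10 of 12. Summed over libraries, the intervals stayed below 1 in both strains, with 0.901 (0.817 to 0.992) in the control and 0.850 (0.774 to 0.934) in SSDDCS. With HML and HMR only, the mean ratio was 0.827 in the control and 0.809 in SSDDCS. With the median in place of the mean over peaks the control ratio turned to 1.07. With only the peaks whose 100 bases occur once it fell to 0.620 in the control and 0.573 in SSDDCS. The interior peaks then left were 11785, 12235, 293079 and the 4 Ya peaks. These include the deepest member, and Ya also receives fragments of MAT in these cells.

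The lowest ratios were at HMR. HMR silencers over HMR interior gave 0.676 ± 0.163 in the control and 0.550 ± 0.125 in SSDDCS, below 1 in 12 of 12 libraries of each strain, whereas HML gave 0.890 ± 0.173 and 0.917 ± 0.161, below 1 in 9 of 12 of each. Over the summed reads HML gave 0.881 (0.780 to 0.995) in the control, an interval below 1 as well, and 0.914 (0.813 to 1.03) in SSDDCS. The HMR interior contains the Ya peaks, onto which a second copy from MAT falls in these cells. Without the 4 Ya peaks the HMR ratio was 1.03 ± 0.390 in the control and 0.810 ± 0.210 in SSDDCS, below 1 in 6 and 10 of 12 libraries, and the summed control reads gave 0.977 (0.779 to 1.23). The part of the extra copy in the HMR ratio was not tested further.

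**Figure D2:**
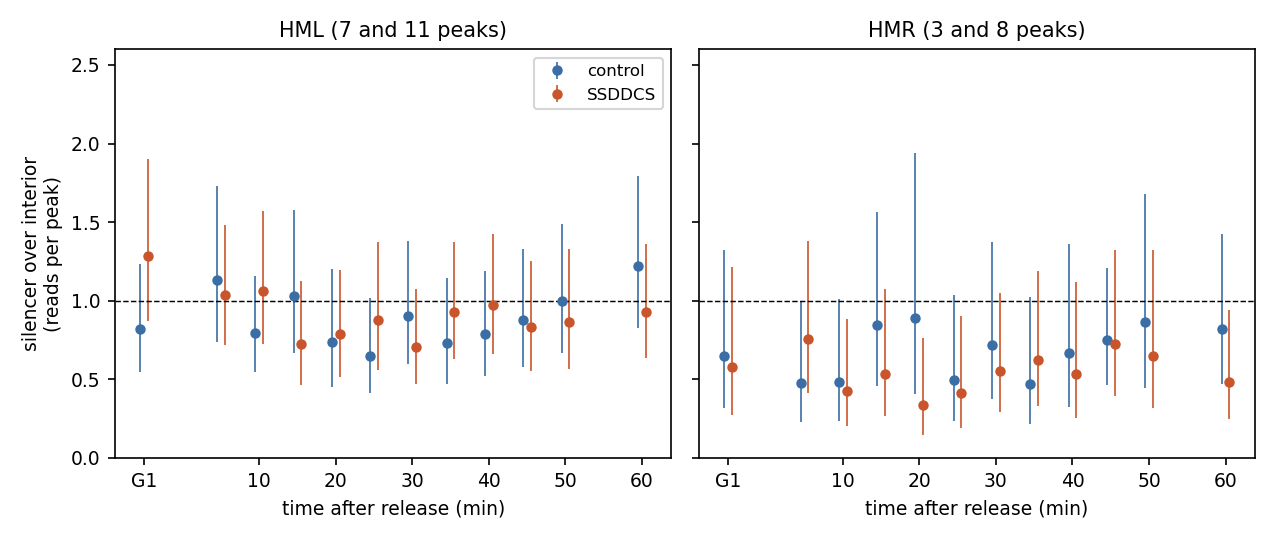
Ratio of reads per peak at silencers to reads per peak in the interior of the same cassette, for each library against time after release, with 95% Wilson intervals and the dashed line at equality. At HMR all 24 points lie under the line, from 0.333 to 0.889, and at HML they lie on both sides of it.

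Compared with origins elsewhere, the silencer peaks were shallow. Their median was 4.23 normalised reads (quartiles 3.37 to 4.73), against 5.68 (3.85 to 8.02) over 804 peaks within 100 bp of the other 355 annotated origins, and 7 of 10 lay below the median of all peaks. High-confidence peaks made up 1 of the 10 silencer peaks and 23.9% of the peaks at other origins.

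The exception was HML-I. Its peak at 14687, inside ARS302 and 19 bp from the centre of the exact ORC match, ranged from 5.68 to 13.0 normalised reads in the control with a median of 8.90, and from 3.04 to 15.1 in SSDDCS with a median of 8.70. The ranges overlapped throughout. It was the only high-confidence silencer peak and lay above 87.7% of all peaks. In the neighbouring origin ARS303, which is not annotated as a silencer, the peaks at 14887, 15037 and 15187 averaged 5.83, 2.47 and 3.92 in the control and 6.68, 3.15 and 4.56 in SSDDCS.

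The other silencers were lower. The deepest of 3 HML-E peaks, at 11085, ranged from 0.989 to 6.89 in the control with a median of 4.14 and from 2.01 to 11.8 in SSDDCS with a median of 5.14. HMR-E, the silencer sufficient on its own for silencing of HMR, had 1 peak, at 292679 on the ORC match itself. It held 35 control and 41 SSDDCS reads in all, with a control range of 0 to 7.33 and median of 2.90 and an SSDDCS range of 1.97 to 5.26 and median of 3.06. A peak at 292529 lay 109 bp from ARS317, just outside the rule, with means of 4.87 and 4.91. The deeper HMR-I peak, at 294730, had medians of 3.82 and 3.13.

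The HML W peak at 11785 was the deepest member, with a control range of 3.81 to 19.3 and median of 10.6 and an SSDDCS range of 8.28 to 21.3 and median of 14.9. The HMR peak at 294380 lay at the edge of the Ya and Z1 blocks. It ranged from 4.94 to 25.1 in the control with a median of 10.9. In SSDDCS it ranged from 8.10 to 16.1 with a median of 12.6. Both strains overlapped at both peaks. The junction of Y and Z is where HO cuts at MAT, and in MATa cells Ya joins Z1 at both MAT and HMR, so that fragments of the 2 loci cannot be told apart there.

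The remaining high-confidence members were the HML edge peak at 12235, a peak at 14036 just past Z2 of HML, the MAT X peak at 199581 in MATALPHA2 and the MAT Z1 peak at 200982. Their control medians were 8.47, 7.47, 6.94 and 8.29 normalised reads, and their SSDDCS medians 9.54, 8.55, 8.60 and 10.8. The Z1 block was deep in each copy that had a called peak, with 195 reads at HML (13836) and 224 at MAT (200982). At HMR no peak was called within the Z1 block as bounded here, from 294390 on. The nearest, at 294380, lay at its approximate edge and may belong to Z1.

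**Figure D3:**
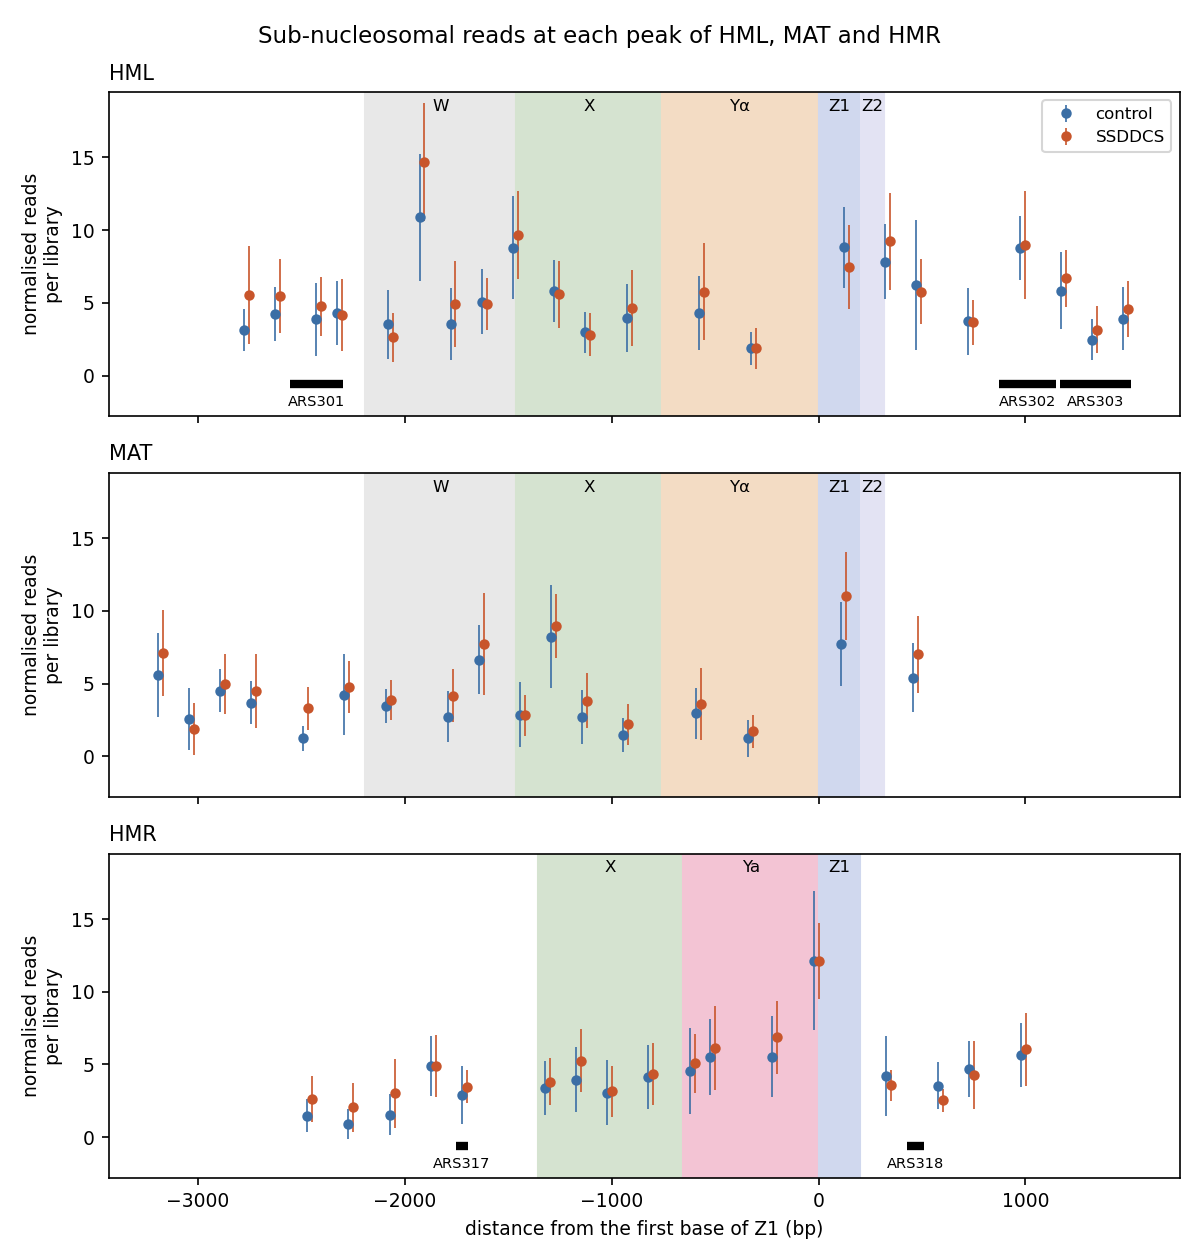
Mean normalised reads per library at each peak (points, with the SD over 12 libraries of the strain as bars), against distance in bp from the first base of Z1, with shared blocks shaded and annotated origins as black bars. The highest points are the W peak of HML at means of 10.9 and 14.7 and the peak at the edge of Ya and Z1 in HMR at 12.1 in both strains.

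Over the alpha genes, the 1 promoter peak shared by α1 and α2 held more reads than the 1 peak in the α1 frame. It held fewer than the 3 peaks of the α2 frame summed. Those 3 peaks lie in X, which all 3 loci share, whereas Yα is a single copy in these cells. The promoter peak at 13136 in HML lies in Yα, 118 bp upstream of HMLALPHA2 and 146 bp upstream of HMLALPHA1. It held 53 control and 68 SSDDCS reads, and the single peak within HMLALPHA1, at 13386, held 23 and 22. Taken singly, the 3 peaks in HMLALPHA2 held 71, 36 and 48 control reads and 66, 33 and 55 SSDDCS reads. Of the reads placed on the alpha form that the reference carries at MAT, the promoter held more too. It had 36 and 43 reads at 200281, against 15 and 20 reads at 200532 in MATALPHA1. MATa cells lack the alpha form at MAT, and these 2 places are copies of those at HML, so they are not independent of them. HMLALPHA2 held 155 and 154 reads on 3 peaks and MATALPHA2 152 and 177 on 3 peaks. The deepest peak in or within 1000 bp upstream of an alpha gene was outside Y in each case: at 13836 for HMLALPHA2, 12435 for HMLALPHA1, 200982 for MATALPHA2 and 199581 for MATALPHA1.

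At the a genes, HMRA1 held 134 control and 153 SSDDCS reads on 2 peaks, and HMRA2 85 and 99 on 2 peaks. The deeper HMRA1 peak, at 294179, ranged from 0 to 10.5 in the control with a median of 5.46 and from 2.95 to 12.2 in SSDDCS with a median of 6.26. The peak at 294380, 842 bp upstream of HMRA2, was deeper than either. The deepest peak in X of HMR, at 293229 in HMRA2, held 44 control and 60 SSDDCS reads after G1, a log2 ratio of 0.49 (-0.07 to 1.05).

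Between the strains, interior reads were slightly higher in SSDDCS after G1. The log2 ratio of SSDDCS to control over the interior was 0.22 ± 0.17 (mean and SD over 11 time points), above 0 at 10 of 11, and the summed reads gave 0.21 (0.11 to 0.31). In G1 it was -0.05 (-0.38 to 0.29). Silencers gave 0.09 ± 0.30, above 0 at 6 of 11, with 0.09 (-0.09 to 0.26) over the summed reads. Flanks gave 0.27 ± 0.31, and already 0.40 (-0.09 to 0.89) in G1. Over the whole table the same ratio was 0.07 for the low-confidence peaks and -0.03 for the high-confidence peaks outside the ribosomal DNA.

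Over the reads placed in each window, MAT had the largest of the 3 locus ratios. All 10 of its interior peaks have surrounding bases that occur elsewhere too, so their reads cannot be assigned to MAT. Over its 17 peaks the log2 ratio was 0.33 ± 0.21, above 0 at 11 of 11 time points, against 0.16 ± 0.26 over HML and 0.17 ± 0.32 over HMR, each above 0 at 9 of 11. In G1 the MAT ratio was already 0.28 (-0.18 to 0.73). The intervals of the summed ratios, 0.18 to 0.45 at MAT, 0.05 to 0.27 at HML and 0.01 to 0.29 at HMR, overlapped. Because each strain was 1 culture, a difference between strains and a difference between cultures cannot be told apart.

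Peak by peak, 41 of 56 members had more reads per total in SSDDCS after G1, against 56.5% of all peaks, and the median log2 ratio was 0.21 against 0.06 over peaks with as many reads. Summed reads were at least 2-fold higher in 2 members (198380 and 292128), where the share over peaks of that depth was 0.869%, and at least 2-fold lower in 0, where it was 0.269%. The counting interval lay above equality in 6 members (background 7.83%) and below it in 0 (background 3.14%). The 6 were 10935, 11785, 198380, 200982, 292128 and 292329, named after their values were seen. No member had the same sign at all 11 time points, which 0.614% of all peaks did.

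Of these 6, the peaks at 198380, 292128 and 292329 were shallow. The HML flank peak at 10935 had a mean of 4.33 normalised reads, above 44.1% of all peaks. It held 34 control and 63 SSDDCS reads after G1, a log2 ratio of 0.93 (0.34 to 1.53). The MAT flank peak at 198380, in BUD5, a gene of bud site selection, held 15 control and 37 SSDDCS reads after G1, a log2 ratio of 1.35 with an interval that began at 0.49. It ranged from 0 to 2.86 normalised reads in the control with a median of 1.01 and from 0.979 to 5.26 in SSDDCS with a median of 3.09, so the strains overlapped. Left of HMR-E, the peaks at 291928, 292128 and 292329 held 17, 9 and 18 control reads and 29, 23 and 32 SSDDCS reads after G1, with log2 ratios of 0.82, 1.40 and 0.87. Of these neighbours the first had an interval that reached equality (-0.04 to 1.67).

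The 2 deeper ones were high-confidence. The HML W peak at 11785 gave a log2 ratio of 0.50 (0.16 to 0.84), with more reads in SSDDCS at 10 of 11 time points, and the MAT Z1 peak at 200982 gave 0.59 (0.20 to 0.99), also at 10 of 11. In G1 the libraries held 15 control and 12 SSDDCS reads at 11785 and 10 and 7 at 200982. These counts are too low to order the strains in G1. The copy of the Z1 peak at HML, 13836, went the other way with -0.24 (-0.67 to 0.18), and its 100 bases are the same at both. The peaks 294380, 14687 and 199581 gave -0.02, -0.11 and 0.10, with intervals on both sides of 0.

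**Figure D4:**
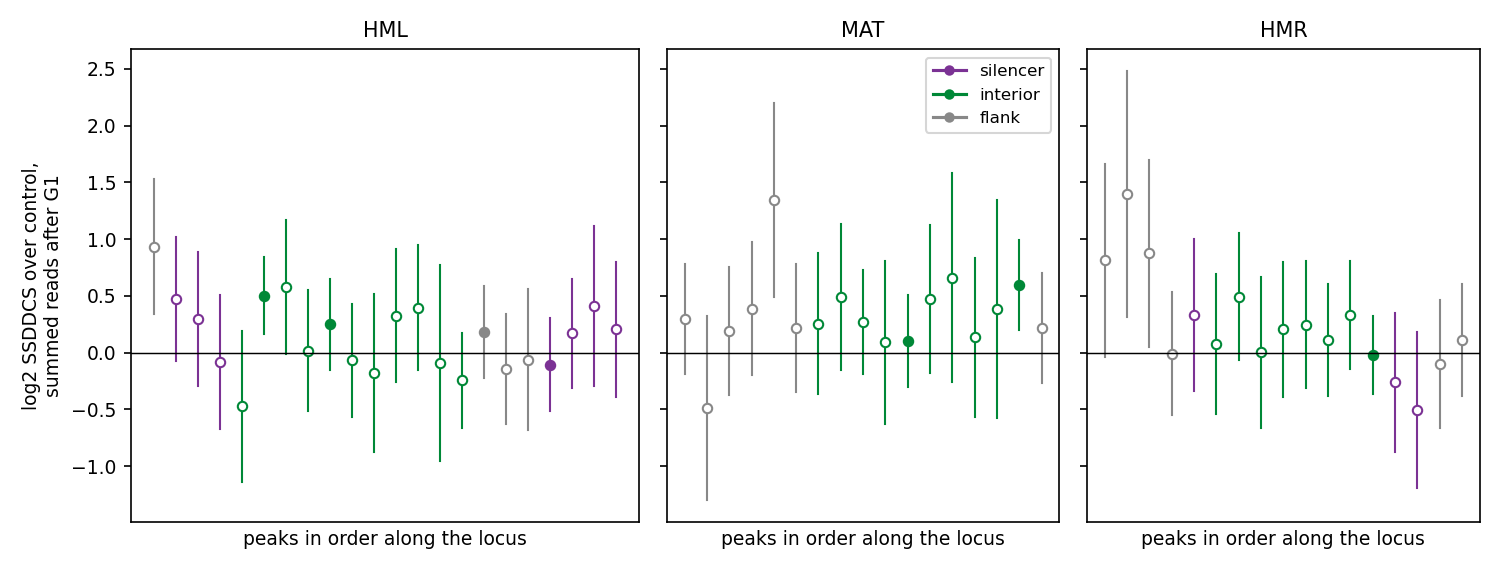
Log2 ratio of SSDDCS to control of the reads summed over 11 time points after G1, for each member peak in order along its locus, with 95% Wilson counting intervals, filled for high-confidence peaks and coloured by place. Most intervals cross 0, and the highest values are the peaks 198380 at MAT (1.35) and 292128 left of HMR (1.40).

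With the study's 2-fold threshold at 1 or more time points after G1, applied here to normalised reads + 1 and not limited to promoters, 4 of 7 high-confidence members passed, where 64.2% of all high-confidence peaks did. Without the depth filter, 53 of 56 members passed, against 91.4% of all peaks. The members' shares were 57.1% and 94.6%, near the background in each case.

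Through S phase the silencers stayed within counting error of G1, and some interior and flank values did not. Against the low-confidence peaks of the genome, given below, the silencers were lower at 20 to 35 min. In the control, silencer reads at 20 to 35 min over G1 gave a log2 value of -0.22 (-0.70 to 0.26), after 0.11 early (5 to 15 min) and before 0.33 late (40 to 60 min). In SSDDCS the values were -0.29 (-0.73 to 0.16), -0.09 early and -0.08 late. Each silencer interval included 0. Silencer reads per library ranged from 31 (control, 20 min) to 61 (control, 60 min, and SSDDCS, 5 min), and no value stood alone.

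The interior gave -0.08 (-0.34 to 0.18) at 20 to 35 min in the control and 0.26 (-0.00 to 0.52) in SSDDCS, and late values of 0.12 (-0.14 to 0.38) and 0.29 (0.03 to 0.56). The HMR interior gave 0.52 (0.02 to 1.02) late in the control, and without the Ya peaks 0.90 (0.01 to 1.80) at 20 to 35 min in SSDDCS, where the G1 library held 11 reads. The HML flank gave 0.97 (0.17 to 1.76) at 20 to 35 min in the control, where the G1 library held 14 reads. Over the same 20 to 35 min, the low-confidence peaks of the genome gave 0.27 in the control and 0.39 in SSDDCS over G1, and the high-confidence peaks outside the ribosomal DNA gave -0.22 and -0.21. Late, the low-confidence peaks gave 0.26 and 0.35, and the high-confidence peaks -0.01 and -0.04. The late SSDDCS interior, at 0.29, thus lay below the low-confidence value, and the late HMR interval in the control included it. All but 1 of the silencer peaks are low-confidence. At 20 to 35 min their intervals ended below the low-confidence values, at 0.26 in the control and 0.16 in SSDDCS. The control interior interval, ending at 0.18, did so too. With totals of high-confidence peaks alone, silencers moved to -0.00 and -0.08, the control interior turned to 0.14, and the SSDDCS interior moved to 0.47. With totals outside the ribosomal DNA the SSDDCS interior was 0.09. The scaling thus changed the sign of the control interior alone and the size of the others. Reads here also carry DNA copy number, and replication of a locus and coverage by protein cannot be told apart.

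At single silencers the counts were too low to follow. HMR-E held 0 reads at 5 min and 7 at 45 min in the control, and 2 to 5 throughout in SSDDCS. HML-I (14687) held 15 reads in G1 in SSDDCS and 3 at 35 min, where the control held 6 and 7. The peak at 294380 held 5 reads at 20 min and 24 at 45 min in the control, and between 8 and 16 in SSDDCS.

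**Figure D5:**
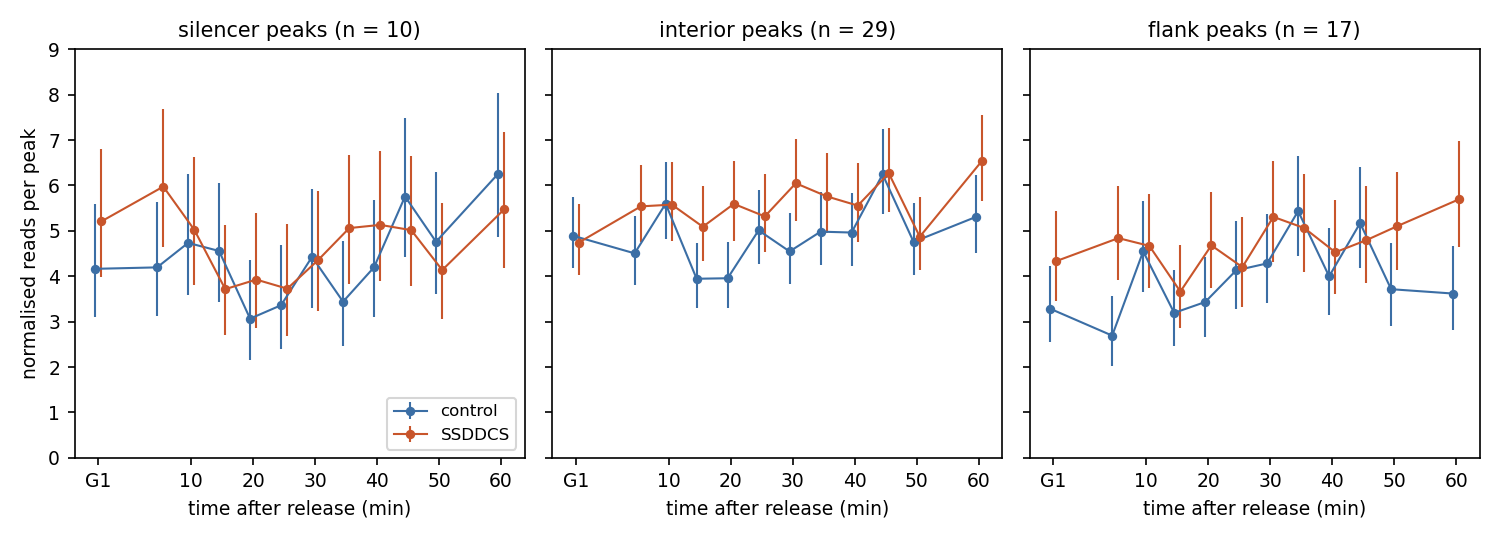
Normalised reads per peak at silencer, interior and flank peaks against time after release, 1 library per point, with 95% Wilson counting intervals. Silencer points lie between 3.07 and 6.25 and interior points between 3.94 and 6.53, and the intervals of the strains overlap at most times.

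Promoters of the genes that act on these loci were read from fixed lists. Of 17 genes of silencing, 16 had a high-confidence peak within 1000 bp upstream, and 14 of their 19 distinct peaks passed the 2-fold rule at 1 or more time points, where 64.2% of all high-confidence peaks did. HHT1 and HHF1 share a promoter, whose peaks were counted once. SIR1, whose product binds ORC at silencers, had the deepest peak of the SIR genes, at 30.7 ± 11.7 normalised reads in the control and 28.7 ± 4.19 in SSDDCS. SIR2, the histone deacetylase, gave 8.78 ± 2.68 and 8.31 ± 3.12, SIR3 10.4 ± 4.20 and 11.7 ± 3.01, and SIR4 8.25 ± 2.57 and 7.95 ± 2.78 (SD over 12 time points). None of these pairs differed beyond the spread over time. The median log2 ratio after G1 over the deepest peak of each gene was -0.13, and single genes ran from -0.60 (SUM1) to 0.24 (SIR3).

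Of 6 genes of mating type switching, 5 had high-confidence promoter peaks, with 5 of 8 past 2-fold, beside the same 64.2% for all high-confidence peaks, and a median of -0.16. HO had none, and its deepest peak, 853 bp upstream, gave 5.16 ± 3.30 and 4.77 ± 2.73. Among 6 genes that a cells express, 3 had such peaks, with 4 of 4 past 2-fold (background again 64.2%) and a median of -0.05, and STE2, the alpha factor receptor, gave 16.5 ± 7.62 and 16.5 ± 5.44. Among 4 genes that alpha cells express, 3 had such peaks, with 3 of 5 past 2-fold and a median of -0.20, and STE3, the a factor receptor, gave 27.4 ± 8.23 and 21.6 ± 6.60. Single log2 ratios ran from -0.46 (BAR1) to 0.40 (MFA1) in the a set. In the alpha set they ran from -0.49 (STE3) to 0.04 (MF(ALPHA)1). Peaks stood at promoters of both sets, so these levels did not tell the mating type.

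The peaks whose levels over the 24 libraries were most like the summed silencers, among 69 with at least 50 normalised reads, were on chromosome II at 5630 (Pearson r = 0.63), XIV at 6384 (r = 0.61) and V at 576792 (r = 0.61). The last is upstream of YER190C-B and the others of YBL111C and YRF1-6. Copies of their sequence elsewhere in the reference are not given here, so their reads may not belong to 1 place each. The median r over the candidates was 0.28. All libraries share the total by which they were scaled, and the r values are a description of 24 libraries.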

How the data were processed

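The authors deposited a table of read counts with a row for every peak and its position in bp. Per the study's methods, the authors mapped with Bowtie2 2.2.6 to the S288C genome (R64), sampled fragments under 100 bp to equal numbers per fragment size, and called peaks on all libraries merged. Counting window and treatment of fragments with several equal places are not given in the sources used here. The number of value columns without a sample was 0. The column labelled 0 min of each strain was taken as its G1 library, the only sample without a minute label. Counts were divided by the library total and scaled to the mean total (Python 3.11.15, pandas 2.3.3, NumPy 2.4.6, SciPy 1.17.1, matplotlib 3.10.9). Ratios used a pseudocount of 1 where calls were made at single time points. Sequence, origins and genes came from the RefSeq R64 annotation. By rule, named peaks were all high-confidence members, the deepest of each silencer, of each X, Y and Z block and of each gene with 1000 bp upstream, and 3 most alike peaks. Other peaks were named for their strain ratio after it was seen, or for their place beside a silencer, a named peak or an aligned copy. The lists (silencing, switching, a cell and alpha cell genes) and the members were chosen with earlier results of these data known. On simulated counts with known folds, only the recovery of the log2 ratio of summed reads was checked. The share of 2-fold calls that arise from counting noise is not given here. Alternatives varied the totals, the members, the silencer distance, the time bins, the fold and the pseudocount.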

Additional observations from a re-analysis of the deposited data

How the results depend on the processing

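Of 70 alternatives that changed a setting, 13 left the samples, peaks and ratio of their result as they were and say nothing of stability. Of the other 57, 46 stayed within the counting interval or within 1.5 times the count reported, 10 moved and 1 reversed. Leaving out 1 time point could move a value in 71 of 99 cases, and all 71 stayed within the interval. With the median over peaks the control ratio of silencer to interior reversed to 1.07. With only peaks whose 100 bases occur once, the ratio moved to 0.620 in the control and 0.573 in SSDDCS. The interior was then the Ya peaks with 11785, 12235 and 293079 only. High-confidence members hold a single silencer peak, and with it the strain ratio of silencers moved to -0.19 and the S phase change to 0.43 in the control and -1.45 in SSDDCS. The count of high-confidence members past 2-fold moved from 4 to 7 at 1.5-fold, 2 at 3-fold, 0 with a pseudocount of 10 and 53 over all members. Ya over Yα moved to 2.87 per base. Alternatives chosen after seeing the data kept the overall silencer to interior ratio within its interval without the Y blocks, and the silencer results without the ARS303 peaks. The ratio at HMR alone did move without Ya, from 0.676 to 1.03 in the control and from 0.550 to 0.810 in SSDDCS. Other causes of these shifts were not tested.

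The strains were compared at matched time points, but these come from 1 culture each, and no test was run over them. The depth limits what can be seen: a typical member had 4 to 5 reads per library, so single peaks at single times carry little information. Effects of digestion, culture and DNA copy number on these counts cannot be told apart.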
